A study of Mus musculus with 32 samples.

Results

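Mouse regulatory T cells (Tregs) cultured for 36 h with an agonist of the receptor 4-1BB were compared with Tregs cultured for the same time with an agonist of the receptor OX40. The comparison uses 6 of the 32 libraries of the study, chosen by their titles alone, with 3 libraries per agonist. The whole study also holds resting Tregs and, at 18 h and 36 h, cultures without an agonist or with agonists of 2 other receptors.

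Tregs, a class of CD4 T cell, need Foxp3 for their identity and hold back the responses of other immune cells. 4-1BB, encoded by Tnfrsf9, and OX40, encoded by Tnfrsf4, belong to the TNF receptor superfamily, appear or rise on T cells after activation, and signal in T cells through TRAF adaptor proteins. Both pathways are known to switch on NF-kB, a family of dimeric transcription factors that are held in the cytoplasm by IkB proteins and that induce their own inhibitors, survival genes and cytokines.

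All 6 cultures held Foxp3/GFP+ Tregs purified from C57BL/6 mice aged 2.5 months that carry a Foxp3-IRES-GFP knock-in, which places GFP under the endogenous Foxp3 gene. All were stimulated through plate-bound antibodies to CD3 and CD28 in medium with mouse IL-2 at 10 ng/ml. The 4-1BB agonist was the monoclonal antibody 3H3 at 10 µg/ml, and the OX40 agonist was the ligand OX40L at 100 ng/ml. The 36 h control, also 3 libraries, had the same stimulation and IL-2 but no agonist. One reagent is an antibody and the other a ligand, and their doses differ, so the values below compare these particular cultures and not the potency of the receptors. The labels do not say whether the libraries of a group came from separate mice or cultures, so p-values measure the spread between libraries, which may be technical. That spread was estimated for each gene over all 32 libraries in 11 groups, and not from these 6 alone. In bulk RNA, fewer cells of a type and less RNA per cell cannot be told apart.

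The 6 libraries held 14785089 to 38083925 expected counts (estimated reads per gene). The deepest and the shallowest were both OX40 agonist libraries, numbers 1 and 2. A transcript of the ribosomal RNA locus took 1623, 13170.0 and 9102 CPM (counts scaled to a common library total) in OX40 agonist libraries 1, 2 and 3, against 1985 to 2780.0 with the 4-1BB agonist, and its part in the differences below was tested only as a covariate, which left 480 called genes in place of 520. The cells carried Treg transcripts in both groups. Foxp3 lay at 355 to 381 CPM with the 4-1BB agonist and 375 to 392.4 with the OX40 agonist. Cd8a lay at 1.06 to 1.40 and 0.487 to 1.30 CPM. Among other Treg and T cell markers, Ctla4, Cd3e and Cd4 were called lower with the 4-1BB agonist, while Il2ra and Ikzf2 were not called. Marker lists of other cells held no called gene by edgeR or DESeq2 among 12 B cell, 9 myeloid, 6 CD8 T or NK and 4 erythroid genes tested, with 1, 1, 0 and 0 at an unadjusted p below 0.05. Their summed levels in the 4-1BB and OX40 groups were 298.7 to 310.0 and 270.1 to 292.0 CPM for 15 B cell genes, and 27.7 to 29.7 and 30.02 to 31.8 CPM for 18 myeloid genes. For 12 CD8 T and NK genes they were 7.79 to 10.0 and 8.48 to 10.1 CPM, with Ncr1, Klra8 and Klrb1c at 0 in both groups. Summed erythroid and platelet genes, 15 in all, gave 4.54 to 5.74 and 5.78 to 6.80 CPM, with Alas2, Pf4 and Ppbp at 0. The agonist groups did not overlap in the B cell sum, higher with the 4-1BB agonist, or in the myeloid and erythroid sums, lower with it. Over alternative settings of the fit, up to 2 B cell genes were called higher with the 4-1BB agonist and 0 lower.

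Of 14313 genes tested, 520 (3.63%) differed between the agonists at 36 h, below an adjusted p of 0.05 in edgeR's quasi-likelihood test. With the 4-1BB agonist 226 (1.58%) were higher and 294 (2.05%) lower. These shares are the background for the called counts of gene lists below. Of the 743 list genes tested, 14.27% were called, and the lists were chosen with earlier results of these data known. At an unadjusted p below 0.05 in the same test there were 1672 of the 14313 genes, the background for unadjusted counts of gene lists. Most differences were small. The median size over called genes was 0.27 on the log2 scale, and 427 of the 520 differed by less than 1.5-fold. The 3 libraries of one agonist did not overlap the 3 of the other for 516 of the 520, beside 17.5% of all genes tested. At least 2-fold differences were called for 31 genes (0.217%), 23 higher and 8 lower with the 4-1BB agonist. Only 5 of the 31 reached a mean of 5 CPM, namely Ankrd33b, Il13, Scin, Cacnb3 and Csf2, all higher with the 4-1BB agonist. The 8 lower genes had means of at most 1.68 CPM in the OX40 group. Without OX40 agonist library 1 the number of called genes was 336, and with it as the only OX40 library it was 236. In the latter setting, also used for single genes, the OX40 group has 1 library, which is assumed to vary like those of the other groups. For scale, 3215 genes (22.5%) were called between the 4-1BB agonist and the control, and 1908 (13.3%) between the OX40 agonist and the same control libraries. TMM scaling assumes that most genes do not change, so each level is a share of the RNA that was counted.

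**Figure D1:**
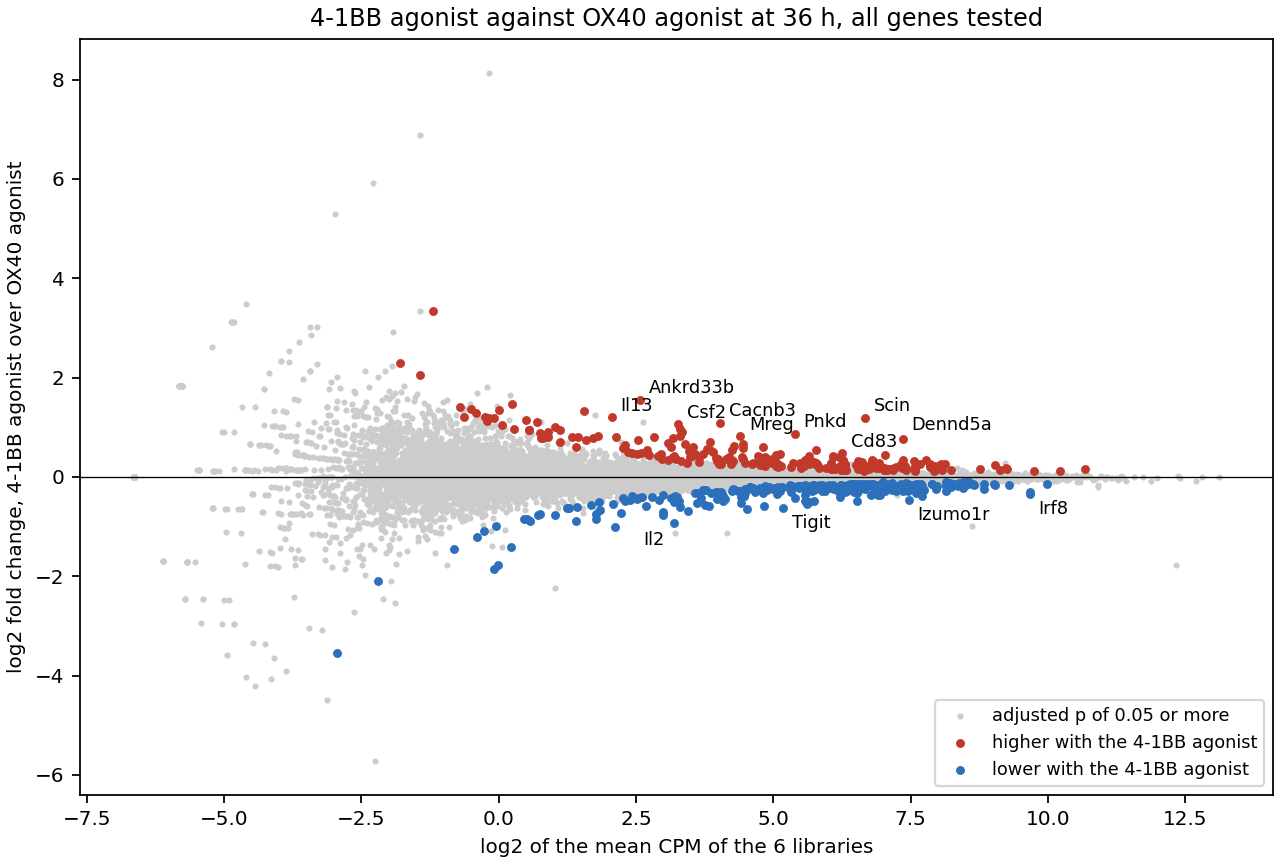
Each point is 1 of the 14313 genes tested, with the log2 of its mean CPM over the 6 libraries on the horizontal axis and the log2 fold change of the 4-1BB agonist over the OX40 agonist on the vertical axis. Red and blue points are the 226 genes called higher and the 294 called lower with the 4-1BB agonist; the wide fold changes at the left are genes of few counts, most of them not called.

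The genes highest with the 4-1BB agonist relative to the OX40 agonist were led, among well-measured transcripts, by Scin, which encodes the actin-severing protein scinderin (chromosome 12, 40059769 to 40134228, mm10). Its levels were 141, 140.0 and 142 CPM with the 4-1BB agonist, 61.1, 64.7 and 59.1 with the OX40 agonist and 14.0, 13.6 and 14.7 in the control. The groups did not overlap and the libraries of each group lay close together. The log2 fold change of the 4-1BB over the OX40 agonist was 1.20 ± 0.051 (SE; adjusted p = 1.66e-22), a 2.29-fold difference. Over the control, the log2 fold change was 3.32 with the 4-1BB agonist and 2.12 with the OX40 agonist; these 2 values share the 3 control libraries, as do all such pairs below.

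Dennd5a, which encodes an activator of a RAB GTPase of membrane traffic (chromosome 7, 109893780 to 109960470), gave 207, 206 and 203 CPM with the 4-1BB agonist. With the OX40 agonist it gave 122, 121 and 119.8 CPM, and in the control 91.7, 88.7 and 88.7. The log2 difference between agonists was 0.76 ± 0.037 (SE; adjusted p = 6.46e-21). So the 4-1BB libraries stood well above both other groups, which also did not overlap each other. Cacnb3, the beta-3 subunit of voltage-gated calcium channels, measured 20.7, 24.3 and 21.9 CPM against 10.6, 10.2 and 10.4, with 5.15, 4.48 and 4.39 in the control. That is a log2 difference of 1.09 ± 0.076 (SE; adjusted p = 5.06e-15), and none of the 3 groups overlapped.

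Cytokine transcripts were among the largest differences. Csf2, which encodes the growth factor GM-CSF, stood at 13.02, 12.2 and 13.7 CPM with the 4-1BB agonist, 6.35, 5.91 and 6.29 with the OX40 agonist and 2.13, 2.46 and 2.59 in the control. The log2 difference was 1.06 ± 0.11 (SE; adjusted p = 7.55e-10). Il13, a type 2 cytokine, was lower in level, at 6.41, 5.34 and 5.65 CPM against 2.69, 2.57 and 2.21, and 1.07, 0.672 and 1.11 in the control. Its log2 difference of 1.20 ± 0.24 (SE; adjusted p = 0.00137) was wide, and with library 1 as the only OX40 library it was 1.10 at an adjusted p of 0.113. Adm, which encodes the vasoactive peptide adrenomedullin, was 14.2, 13.3 and 11.8 CPM against 6.99, 6.60 and 7.26, a log2 difference of 0.91 ± 0.10 (SE; adjusted p = 5.09e-09).

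The other genes of this leading group span several kinds of protein. Ankrd33b, an ankyrin-repeat gene, had the largest log2 difference of the group, 1.56 ± 0.16 (SE; adjusted p = 4.64e-10), from 7.57, 9.98 and 9.15 CPM against 3.09, 2.99 and 2.95; the control libraries held 0.51, 0.627 and 0.863. Ccdc184 (0.96), Pnkd (0.87), Lrp1, an endocytic receptor (0.83), and Mreg, melanoregulin, a protein of organelle transport (0.82), came next among these other genes on the log2 scale, followed by Hspg2, the matrix proteoglycan perlecan (0.80), Cercam (0.79), Kcnh2, a potassium channel (0.74), and Casz1, a zinc finger transcription factor (0.71). Hspg2 was no longer called without 4-1BB library 2 or without OX40 library 1 (highest adjusted p over its alternatives 0.11). None of the 15 overlapped between the agonist groups, which the naming rule required. Exons of Casz1 and Cercam overlap antisense genes, from which these counts may not be separable.

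**Figure D2:**
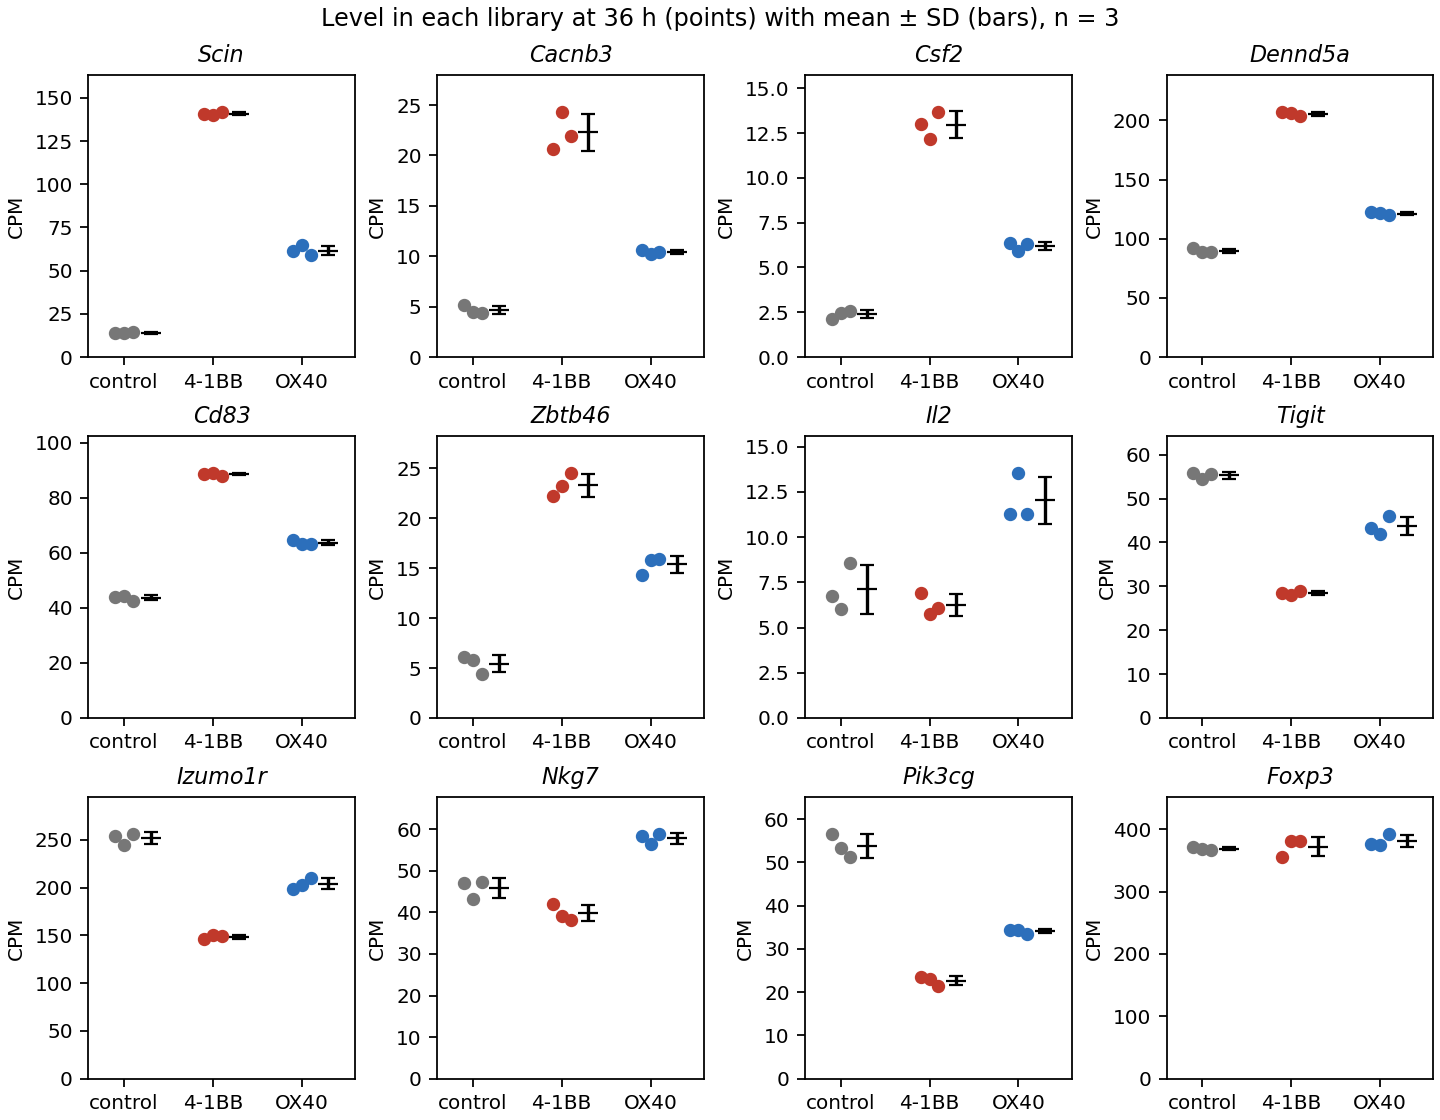
Points are the CPM of each of the 3 libraries per group at 36 h for 12 genes, on axes that start at 0, with the mean ± SD beside them. Scin, Cacnb3, Csf2, Dennd5a, Cd83 and Zbtb46 are highest with the 4-1BB agonist; Il2 and Nkg7 are highest with the OX40 agonist; Tigit, Izumo1r and Pik3cg are lowest with the 4-1BB agonist; Foxp3 overlaps.

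The genes lower with the 4-1BB agonist than with the OX40 agonist were led by Il2, which encodes the T cell growth factor interleukin-2 (chromosome 3, 37120523 to 37125959). Its levels were 6.92, 5.74 and 6.07 CPM with the 4-1BB agonist and 11.3, 13.6 and 11.3 with the OX40 agonist, with 6.72, 6.00 and 8.59 in the control. The 4-1BB libraries overlapped the control, and all OX40 libraries lay above both. The log2 difference between agonists was -0.93 ± 0.13 (SE; adjusted p = 9.78e-07). Against the control the log2 fold change was -0.19 (adjusted p = 0.344) with the 4-1BB agonist and 0.74 (adjusted p = 1.14e-05) with the OX40 agonist. Because IL-2 protein was added to every culture, the transcript does not measure the cytokine present.

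Nkg7, a cytotoxic granule protein, had its control between the agonists. It measured 42.0, 39.0 and 38.3 CPM with the 4-1BB agonist, 47.1, 43.2 and 47.4 in the control and 58.3, 56.3 and 58.9 with the OX40 agonist. The log2 difference between agonists was -0.54 ± 0.051 (SE; adjusted p = 8.27e-11), made up of -0.21 (adjusted p = 0.00222) and 0.34 (adjusted p = 1.06e-06) over the control. Tgm2, a transglutaminase, and Trpm1, a cation channel, were lower with the 4-1BB agonist, by log2 values of -0.76 and -0.72 against OX40. Against the control they were -0.62 and -0.65 with the 4-1BB agonist and 0.14 and 0.074 with the OX40 agonist, the latter pair at adjusted p of 0.519 and 0.768. Tgm2 shares 370 exon bases with Rprd1b on the opposite strand.

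For a further set of genes the control was the highest group. Tigit, an inhibitory receptor of T and NK cells (chromosome 16, 43648867 to 43664146), was 28.4, 27.96 and 28.9 CPM with the 4-1BB agonist, 43.4, 41.9 and 45.9 with the OX40 agonist and 55.8, 54.4 and 55.7 in the control. The log2 difference was -0.62 ± 0.053 (SE; adjusted p = 2.35e-12), with 3 groups that did not overlap. Pik3cg, the catalytic subunit of PI3-kinase gamma, gave 23.6, 23.0 and 21.5 CPM, 34.3, 34.5 and 33.6 CPM and 56.6, 53.4 and 51.1 CPM in the same order, a log2 difference of -0.59 ± 0.062 (SE; adjusted p = 1.11e-09). Each 4-1BB library was thus below every OX40 library and each OX40 library below every control library. Cxcr6, a chemokine receptor (-0.61), Epcam, an adhesion molecule (-0.58), Itih5 (-0.65), Gpr146 (-0.68), Srgap3, a GTPase-activating protein (-0.71), and Ly6c1, a surface antigen of memory and other T cells (-0.56), were lower by the log2 values given. Ly6c1 has a near-identical neighbour, Ly6c2, and the split of reads between them is uncertain. Sdc3, a cell surface proteoglycan (-0.53), and Synpo, an actin-associated protein (-0.52), closed the 15. For Synpo the OX40 agonist was not called against the control (-0.17 on the log2 scale, adjusted p = 0.0764).

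Cttnbp2nl differed from the rest of that group in its control. It measured 10.2, 12.2 and 11.4 CPM with the 4-1BB agonist, 16.3, 17.9 and 17.2 with the OX40 agonist and 8.12, 6.77 and 7.48 in the control. Both agonists were above the control, by 0.60 and 1.19 on the log2 scale, and the log2 difference between them was -0.59 ± 0.088 (SE; adjusted p = 4.62e-06).

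**Figure D3:**
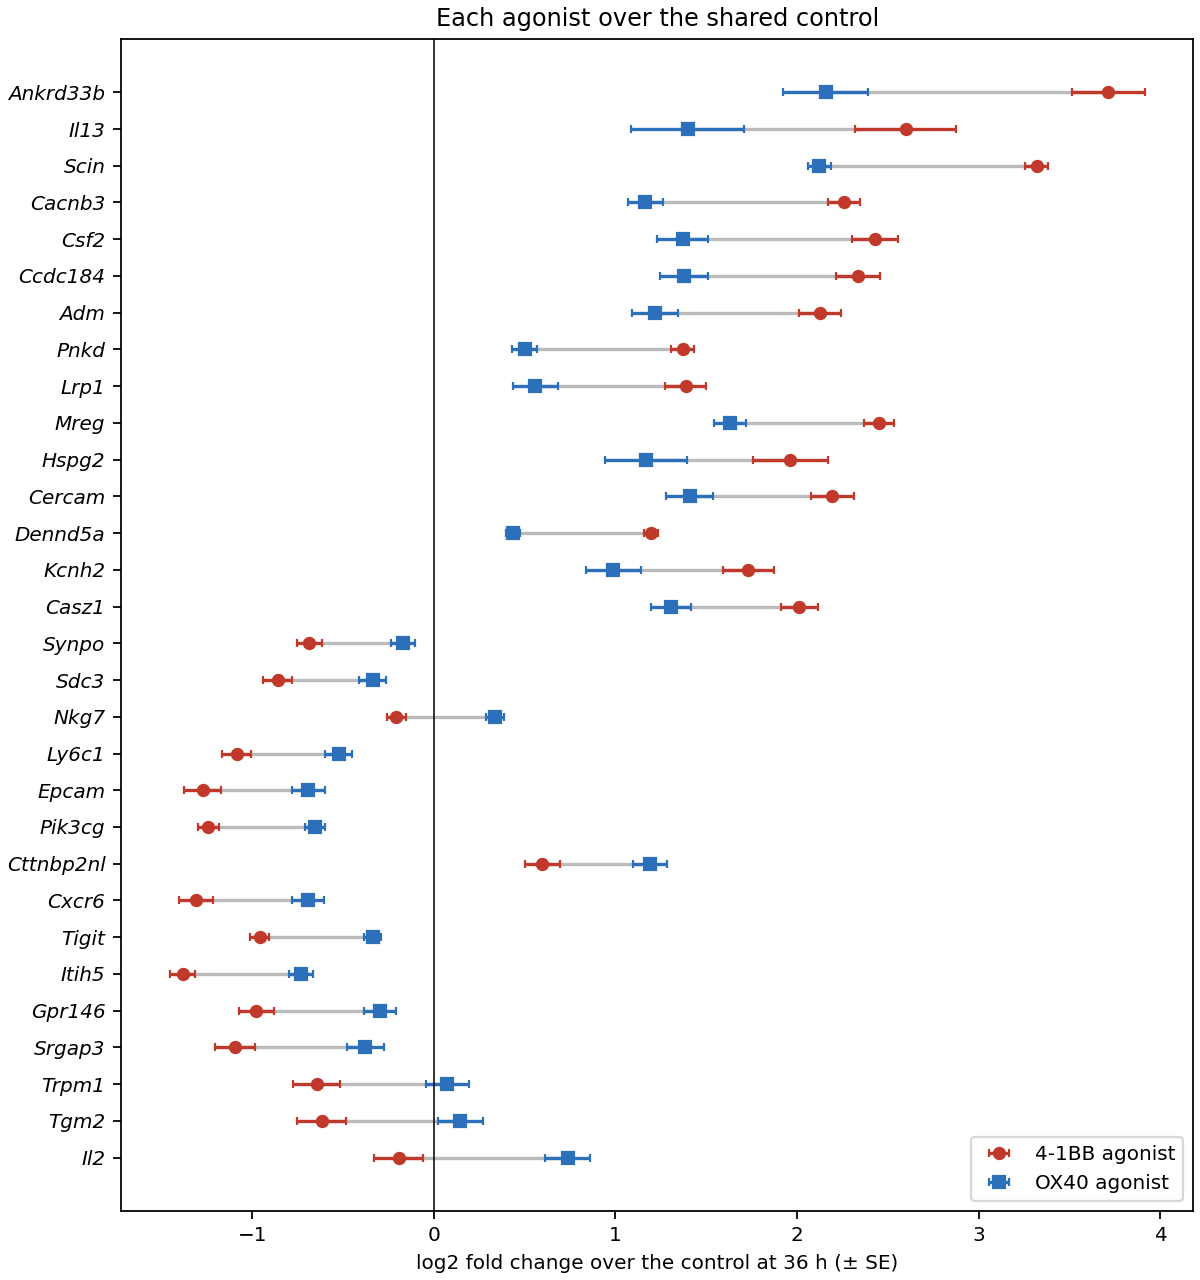
The log2 fold change over the 36 h control (horizontal axis, ± SE) is given for the 4-1BB agonist (red circles) and the OX40 agonist (blue squares), for the 15 genes highest and the 15 lowest in the direct comparison. Both agonists share the 3 control libraries; Il2, Nkg7, Tgm2 and Trpm1 lie on opposite sides of 0 for the 2 agonists, and Cttnbp2nl lies to the right of 0 for both.

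Transcripts of the engaged receptors were close between the agonists. Of the 4 receptors targeted in the study, 1 was called, Tnfrsf1b, which encodes TNFR2, beside 3.63% of all genes tested. The list median was -0.082 on the log2 scale, against -0.003 over all genes. Tnfrsf9 (4-1BB) measured 499, 483 and 493 CPM with the 4-1BB agonist, 521, 521 and 511 with the OX40 agonist and 439, 429 and 433 in the control. The agonist groups did not overlap, but the log2 difference of -0.075 ± 0.036 (SE) had an adjusted p of 0.394 and a 95% interval from -0.147 to -0.003. Tnfrsf4 (OX40) measured 484, 486 and 495 CPM and 518, 498 and 542 CPM, with 532, 475 and 513 in the control. Its log2 difference was -0.089 ± 0.038 (SE; adjusted p = 0.281; 95% interval -0.165 to -0.013), and the control libraries overlapped both groups. Per length, in TPM, Tnfrsf4 was the more abundant of the pair, at 966 ± 22.8 (SD, n = 3) with the 4-1BB agonist and 1018 ± 33.9 with the OX40 agonist, against 506 ± 6.86 and 526 ± 2.38 for Tnfrsf9. Tnfrsf25, which encodes DR3, had a log2 difference of 0.053 ± 0.077 (SE; adjusted p = 0.905; 95% interval -0.103 to 0.209). Tnfrsf1b was 230.2, 239 and 238 CPM with the 4-1BB agonist, 269.5, 260.3 and 268 with the OX40 agonist and 333, 316 and 335 in the control, a log2 difference of -0.17 ± 0.035 (SE; adjusted p = 0.000875) between groups that did not overlap.

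Ligands of these receptors did not pass the test. Tnfsf9, the 4-1BB ligand, was 6.31, 5.39 and 5.97 CPM against 4.84, 3.62 and 4.42, with a log2 difference of 0.41 ± 0.13 (SE; adjusted p = 0.0512; 95% interval 0.162 to 0.668). Tnfsf4, which encodes OX40L itself, was 10.9, 13.4 and 11.2 CPM against 12.6, 10.98 and 11.3, a log2 difference of 0.006 ± 0.098 (SE; adjusted p = 0.999), and the libraries were intermixed. Tnf (-0.096, adjusted p = 0.37), Lta (0.011, adjusted p = 0.972) and Tnfsf15 (0.19, adjusted p = 0.831) are given on the same log2 scale.

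Among 20 other TNF receptors tested, 3 were higher and 1 lower with the 4-1BB agonist, with a list median of 0.01. Called shares were 20.0% of these and 28.6% of the 14 TNF ligands below, beside 3.63% of all genes tested. Tnfrsf8 (CD30) was 103, 106 and 100.4 CPM with the 4-1BB agonist, 82.5, 81.4 and 82.6 with the OX40 agonist and 93.3, 86.6 and 97.8 in the control, a log2 difference of 0.33 ± 0.039 (SE; adjusted p = 3.44e-08). Its control libraries lay between the agonists. Cd27, a costimulatory receptor, was 35.0, 36.0 and 37.4 CPM, 50.4, 47.4 and 46.8 CPM and 46.0, 47.0 and 49.4 CPM in that order, a log2 difference of -0.42 ± 0.050 (SE; adjusted p = 2.8e-08), with the OX40 and control libraries overlapping. Fas, the death receptor (0.21), and Tnfrsf11a, which encodes RANK (0.70), were the other 2 higher genes. Both lost the call without 4-1BB library 1, without 4-1BB library 2 or without OX40 library 3, each of which left 1 higher receptor. Tnfrsf11a was low, at 2.7, 2.9 and 2.6 CPM against 2.1, 1.3 and 1.4. It also lost the call without 4-1BB library 3, without OX40 library 2 and by DESeq2. Of 14 TNF ligands, Tnfsf8, the CD30 ligand, was higher, at 254, 255 and 247 CPM against 213, 215 and 202 (0.26 on the log2 scale, adjusted p = 1.35e-05). Tnfsf10, which encodes the death ligand TRAIL, was lower, at 74.0, 70.5 and 68.7 CPM against 88.2, 94.3 and 81.3 (-0.31, adjusted p = 0.000224). Fasl (-0.46) and Cd40lg (-0.26) were also called lower, but 1 ligand was left as lower by DESeq2 and without 4-1BB library 2, 4-1BB library 3 or OX40 library 3.

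Of 17 NF-kB subunits, IkB proteins and related kinase genes, 5 were higher and 2 lower, with a list median of 0.051. Of 24 TRAF proteins and ubiquitin regulators, 5 were higher and 0 lower (median 0.025; at an unadjusted p below 0.05, 6 higher and 3 lower, and by DESeq2 5 and 0). Of 26 target genes, 9 were higher and 2 lower (median 0.124; range over the list -0.93, for Il2, to 1.06, for Csf2). Called shares of the subunit and IkB list, the TRAF list and the target list were 41.2%, 20.8% and 42.3%, beside 3.63% of all genes tested. The 5 higher members of the subunit and IkB list became 3 without 4-1BB library 2 and 2 without OX40 library 1. Its 2 lower members became 1 without 4-1BB library 1 or 3 or OX40 library 1 or 2. The 2 lower target genes became 1 without 4-1BB library 1 or 2 or OX40 library 3. Among the 15 genes that earlier work on these same samples picked as agonist-induced, 12 were higher and 0 lower (median 0.258; 13 and 0 at an unadjusted p below 0.05, 12 and 0 by DESeq2); that list was chosen on these data and is no independent evidence of direction.

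Both NF-kB subunits of the non-canonical pathway, which 4-1BB and OX40 are known to use, were in the higher group. Nfkb2, which encodes p100 and p52, was 611, 664 and 637 CPM with the 4-1BB agonist, 562, 541 and 588 with the OX40 agonist and 345, 318 and 341 in the control, a log2 difference of 0.18 ± 0.034 (SE; adjusted p = 0.000395). Relb, its partner, was 77.2, 79.9 and 82.5 CPM against 65.0, 68.0 and 74.0, and 60.6, 55.3 and 58.6 in the control, a log2 difference of 0.22 ± 0.045 (SE; adjusted p = 0.00103; 0.17 and adjusted p 0.0733 without OX40 library 1). In both genes the 3 groups did not overlap. Exons of Nfkb2 share 299 bases with Psd on the opposite strand. Rel, the c-Rel subunit, went the other way, at 309, 326 and 330.2 CPM with the 4-1BB agonist, 369, 399.5 and 363 with the OX40 agonist and 335, 354 and 334 in the control. Its log2 difference was -0.23 ± 0.043 (SE; adjusted p = 0.000363), and with library 1 as the only OX40 library it was -0.20 at an adjusted p of 0.0651. The other lower member of that list was Nfkbid, an atypical IkB protein (-0.15 on the log2 scale, adjusted p = 0.0281), which was not called where 1 lower member was left.

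Several genes of IkB proteins, TRAF adaptors and ubiquitin regulators were higher with the 4-1BB agonist. Nfkbie, which encodes IkB-epsilon, was 53.7, 55.0 and 53.02 CPM against 45.3, 42.1 and 43.3, and 33.6, 28.4 and 32.2 in the control, a log2 difference of 0.30 ± 0.049 (SE; adjusted p = 2.86e-05). Tnfaip3, which encodes the ubiquitin-editing enzyme A20, was 175, 189 and 189 CPM, 148, 147 and 139.9 CPM and 120.2, 114 and 118 CPM in the same order, a log2 difference of 0.34 ± 0.041 (SE; adjusted p = 2.31e-08). All OX40 libraries lay between the other groups for both genes. Nfkbia (IkB-alpha), singled out after its values were seen because its promoter is shown here, was 276, 292 and 280.1 CPM against 247, 257 and 263, with 186, 171 and 184 in the control. Its log2 difference was 0.15 ± 0.036 (SE; adjusted p = 0.0078), and it lost the call without 4-1BB library 2 (adjusted p = 0.113) and without OX40 library 1 (adjusted p = 0.138). Traf1, an adaptor of 4-1BB and OX40, was 262, 268 and 269 CPM against 230.1, 224 and 229.6, and 159, 156 and 166 in the control, a log2 difference of 0.22 ± 0.033 (SE; adjusted p = 4.82e-06). Birc2, the ubiquitin ligase cIAP1 (0.27, adjusted p = 9.15e-05), Tnip1, a partner of A20 (0.18, adjusted p = 0.00254), and Birc3, which encodes cIAP2 (0.16, adjusted p = 0.00791), completed the group. Birc3 lost the call without 4-1BB library 3 or OX40 library 3, and Tnip1 without OX40 library 2, with highest adjusted p of 0.221 and 0.0669 over their alternatives.

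Promoters of 4 of these genes are printed because they hold a form of the NF-kB motif and their transcripts differed between the agonists in both directions. The windows run from 250 bases before to 50 after an annotated start, from RefSeq on GRCm38.p6, written 5′ to 3′ along the gene, with the match in capitals. The motifs searched, on both strands, were GGGANTTTCC and GGGGNTTTCC, which do not share a match. Of 32851 promoter entries 0.81% held either. Among 9156 tested genes with an entry, 101 (1.1%) held one, as did 4 of 162 genes called higher with the 4-1BB agonist (Madcam1, Nfkb2, Nfkbia and Tnfaip3) and 3 of 228 called lower (Grcc10, Hivep2 and Rel). The 4 were chosen after the matches and values were seen. A match describes the letters of the window only. Tnfaip3 has another entry, at chr10:19011914-19012213, which held 0 matches and is not shown. The promoter shown for Nfkb2, 1 of 3 entries, lies at chr19:46304487-46304786 on the plus strand, that of Nfkbia at chr12:55492598-55492897, that of Tnfaip3 at chr10:19015361-19015660 and that of Rel at chr11:23770920-23771219, the last 3 on the minus strand.
Nfkb2: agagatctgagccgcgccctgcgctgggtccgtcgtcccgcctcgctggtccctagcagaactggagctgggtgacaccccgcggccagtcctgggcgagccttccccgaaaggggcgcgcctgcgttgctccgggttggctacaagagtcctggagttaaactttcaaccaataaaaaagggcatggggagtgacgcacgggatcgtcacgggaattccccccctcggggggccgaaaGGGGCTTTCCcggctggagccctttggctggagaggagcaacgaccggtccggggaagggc
Nfkbia: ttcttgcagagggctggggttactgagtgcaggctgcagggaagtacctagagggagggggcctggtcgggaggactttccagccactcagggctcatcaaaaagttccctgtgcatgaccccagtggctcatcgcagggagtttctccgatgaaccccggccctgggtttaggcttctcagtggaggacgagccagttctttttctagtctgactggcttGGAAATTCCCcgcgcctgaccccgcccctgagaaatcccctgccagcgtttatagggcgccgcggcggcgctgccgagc
Tnfaip3: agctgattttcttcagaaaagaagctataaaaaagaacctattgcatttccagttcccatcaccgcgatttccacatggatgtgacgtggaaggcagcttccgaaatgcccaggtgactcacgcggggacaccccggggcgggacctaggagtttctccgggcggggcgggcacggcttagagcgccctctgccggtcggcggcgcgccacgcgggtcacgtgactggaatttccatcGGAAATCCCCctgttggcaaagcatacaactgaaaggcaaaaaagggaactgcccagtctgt
Rel: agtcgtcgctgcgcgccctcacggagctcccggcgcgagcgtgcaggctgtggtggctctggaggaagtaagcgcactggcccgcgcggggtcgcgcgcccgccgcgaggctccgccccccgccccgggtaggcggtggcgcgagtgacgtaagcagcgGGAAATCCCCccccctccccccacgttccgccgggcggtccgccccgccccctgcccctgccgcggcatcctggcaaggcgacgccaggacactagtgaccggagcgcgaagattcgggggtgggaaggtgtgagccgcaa
Nfkb2 carries GGGGCTTTCC in the direction of transcription, close to the start. Nfkbia, Tnfaip3 and Rel carry a match on the opposite strand, read here as GGAAATTCCC in Nfkbia and as GGAAATCCCC in both Tnfaip3 and Rel. Tnfaip3 and Rel thus share the same matched letters, while Tnfaip3 was higher and Rel lower with the 4-1BB agonist.

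The 3 higher members of the antigen presentation list were Cd83, which is also among the NF-kB targets, Cd80 and Cd74. Cd83, a glycoprotein of activated lymphocytes and dendritic cells, was 88.7, 89.0 and 88.1 CPM with the 4-1BB agonist, 64.6, 63.0 and 63.2 with the OX40 agonist and 44.0, 44.4 and 42.5 in the control. Its log2 difference was 0.47 ± 0.039 (SE; adjusted p = 7.07e-13), with 3 tight groups that did not overlap. Cd80, a ligand of CD28 and CTLA-4, was 32.9, 31.9 and 33.3 CPM against 24.4, 25.6 and 24.9, and 16.3, 15.9 and 15.4 in the control, a log2 difference of 0.39 ± 0.063 (SE; adjusted p = 1.54e-05). Cd74, the invariant chain of MHC class II, was 69.7, 75.4 and 74.7 CPM against 60.1, 59.0 and 60.5, and 45.9, 43.4 and 48.3 in the control, a log2 difference of 0.29 ± 0.048 (SE; adjusted p = 3.16e-05). Icam1, the adhesion ligand of LFA-1 and a member of the NF-kB target and adhesion lists, was 168, 179 and 175 CPM against 144, 146 and 148, and 115, 105 and 119 in the control, a log2 difference of 0.26 ± 0.036 (SE; adjusted p = 1.23e-06). In all 4 genes every OX40 library lay between the control libraries and the 4-1BB libraries. Of 24 antigen presentation genes tested, 3 were higher and 1, Ccr7, was lower (median 0.023), or 16.7% beside 3.63% of all genes. Ccr7 lost the call without 4-1BB library 1, 4-1BB library 2 or OX40 library 3, with no filter on low counts and with library 1 as the only OX40 library (highest adjusted p 0.485).

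Treg core signature genes were called in both directions, 41.7% of those tested beside 3.63% of all genes. The list mixes genes high in Tregs with others such as Satb1, which Foxp3 is known to repress. Foxp3 was 355, 380.2 and 381 CPM with the 4-1BB agonist, 376, 375 and 392.4 with the OX40 agonist and 371, 368 and 367 in the control, with intermixed libraries. Its log2 difference was -0.034 ± 0.036 (SE; adjusted p = 0.84; 95% interval -0.107 to 0.038). Il2ra, the IL-2 receptor alpha chain, had a log2 difference of -0.007 (adjusted p = 0.99; 95% interval -0.074 to 0.061). Of 24 core signature genes, 3 were higher and 7 lower with the 4-1BB agonist, a list median of -0.092; the 7 became 4 without OX40 library 1, and the 3 became 1 without 4-1BB library 2 or 3, without OX40 library 1 or 3 and with the ribosomal covariate. Izumo1r, which encodes folate receptor 4, was 146, 150.0 and 149 CPM against 199, 203 and 210.3, and 254, 244 and 256 in the control, a log2 difference of -0.46 ± 0.034 (SE; adjusted p = 6.05e-14). Gpr83, a receptor enriched in Tregs, was 79.1, 77.9 and 77.2 CPM, 92.3, 94.3 and 92.6 CPM and 133, 129 and 126 CPM in the same order (-0.25 on the log2 scale, adjusted p = 8.03e-06). Satb1, a chromatin organizer that Foxp3 is known to repress, was higher, at 128, 136 and 136 CPM against 111, 108 and 109, and 83.6, 85.5 and 82.8 in the control (0.28, adjusted p = 2.77e-05). For these 3 genes no group overlapped another.

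Inhibitory receptors were lower with the 4-1BB agonist wherever they were called, 29.4% of those tested beside 3.63% of all genes. Of 17 tested, 0 were higher and 5 lower, with a median of -0.167 (at an unadjusted p below 0.05, 0 and 10; by DESeq2, 0 and 5). The 5 became 3 without 4-1BB library 2 or without OX40 library 1. Beside Tigit they included Pdcd1, which encodes PD-1, at 67.2, 64.5 and 61.3 CPM against 76.4, 75.1 and 76.4, and 88.7, 85.2 and 93.6 in the control (-0.24 on the log2 scale, adjusted p = 0.000147). Vsir (VISTA) was 43.4, 46.0 and 40.7 CPM against 51.0, 51.2 and 52.8, and 76.4, 72.1 and 71.8 in the control (-0.25, adjusted p = 0.00103; -0.24 and adjusted p 0.0545 with library 1 as the only OX40 library). Ctla4 was 507, 482 and 488 CPM against 568, 562 and 528, with 521, 541 and 518 in the control (-0.17, adjusted p = 0.00907), and lost the call without 4-1BB library 2 or OX40 library 1 (highest adjusted p 0.0822). Its control libraries overlapped the OX40 group and not the 4-1BB group.

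The epsilon and delta chains of the T cell receptor complex, looked at after their values were seen, were also lower. Cd3e was 189, 190.1 and 191 CPM with the 4-1BB agonist, 214, 234 and 224 with the OX40 agonist and 245, 252 and 247 in the control, a log2 difference of -0.23 ± 0.043 (SE; adjusted p = 0.000174; -0.17 and adjusted p 0.166 with library 1 as the only OX40 library). Cd3d was 80.9, 79.3 and 82.0 CPM against 96.5, 90.0 and 94.2, a log2 difference of -0.22 ± 0.042 (SE; adjusted p = 0.000478). Cd3g, the third CD3 gene, had a log2 difference of -0.14 ± 0.046 (SE; adjusted p = 0.0756). Cd4 was 334, 335 and 338 CPM with the 4-1BB agonist, 365, 355 and 365 with the OX40 agonist and 337, 347 and 357 in the control. Its log2 difference was -0.11 ± 0.030 (SE, adjusted p = 0.0239). Cd4 lost the call without 4-1BB library 1, 2 or 3, without OX40 library 1 or 3, and with no filter on low counts (highest of these adjusted p 0.255).

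Effector Treg genes were called in both directions, 42.9% of those tested beside 3.63% of all genes. Of 28 tested, 4 were higher and 8 lower (median -0.103), and the 8 became 2 without 4-1BB library 1, 3 without 4-1BB library 3 and 2 without OX40 library 1, while the 4 became 1 without 4-1BB library 2 and 2 without any 1 of the 3 OX40 libraries. Batf, a transcription factor of effector Tregs, was 89.3, 83.8 and 84.6 CPM with the 4-1BB agonist, 70.0, 61.9 and 71.4 with the OX40 agonist and 52.96, 48.7 and 53.4 in the control, a log2 difference of 0.34 ± 0.048 (SE; adjusted p = 1.68e-06). The 3 groups did not overlap. Ccr8, a chemokine receptor of effector Tregs, was 136, 136 and 139 CPM against 164, 165 and 167, with 149, 143 and 147 in the control, a log2 difference of -0.27 ± 0.035 (SE; adjusted p = 1.48e-07). Here the control lay between the agonists. Maf, a transcription factor of IL-10 producing cells, was 39.0, 41.8 and 43.8 CPM against 52.2, 55.9 and 53.9, and 72.2, 77.3 and 71.9 in the control, a log2 difference of -0.37 ± 0.073 (SE; adjusted p = 0.00151; -0.33 and adjusted p 0.127 with library 1 as the only OX40 library).

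Helper lineage transcription factors, 33 tested, had 4 higher and 8 lower members (median -0.095). Called shares were 36.4% of these and 38.5% of the conventional helper T cell list below, beside 3.63% of all genes tested. The 4 became 2 without 4-1BB library 2 or OX40 library 1, and the 8 became 5 without 4-1BB library 1 and 4 without OX40 library 1. Zbtb46, known best from dendritic cells, was 22.3, 23.2 and 24.6 CPM with the 4-1BB agonist, 14.4, 15.8 and 15.9 with the OX40 agonist and 6.08, 5.83 and 4.44 in the control. Its log2 difference was 0.62 ± 0.079 (SE; adjusted p = 1.48e-07), with every OX40 library between the others. Irf8, an interferon regulatory factor, was one of the most abundant called genes, at 700.4, 726 and 729 CPM against 896, 878 and 949, and 1067, 990.0 and 1069 in the control, a log2 difference of -0.34 ± 0.035 (SE; adjusted p = 1.11e-09). Themis, a regulator of T cell receptor signalling, was higher, at 63.5, 68.7 and 64.3 CPM against 45.5, 43.6 and 44.5, and 35.3, 40.9 and 34.4 in the control (0.55 on the log2 scale, adjusted p = 5.99e-11). The conventional helper T cell list that holds Themis had 1 higher and 4 lower of 13 members, and the 4 became 2 by DESeq2 and without 4-1BB library 2, 4-1BB library 3 or OX40 library 3.

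Genes of activation through the T cell receptor showed 0 higher and 3 lower of 27 NR4A, EGR and AP-1 family members and partners (median -0.069). That is 11.1% called, beside 3.63% of all genes tested. At an unadjusted p below 0.05 the counts were 0 and 11, and by DESeq2 they were 0 and 4. Nr4a3, a nuclear receptor induced by T cell receptor signals, was 697, 740.0 and 748 CPM with the 4-1BB agonist, 890.0, 903 and 899.5 with the OX40 agonist and 773, 795 and 734 in the control, a log2 difference of -0.30 ± 0.038 (SE; adjusted p = 1.04e-07). Dusp5, a phosphatase of ERK, was 168, 175 and 174 CPM against 209.8, 208 and 228, with 202, 196 and 204 in the control, a log2 difference of -0.32 ± 0.039 (SE; adjusted p = 6.13e-08). All OX40 libraries were above all control libraries for both genes; the 4-1BB libraries overlapped the control for Nr4a3 and lay below it for Dusp5.

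Homing and quiescence genes were called in both directions. Called shares of the homing, quiescence and adhesion lists were 45.0%, 46.2% and 19.0%, beside 3.63% of all genes tested. Of 26 quiescence and recirculation genes, 2 were higher and 10 lower (median -0.119), and of 20 chemokine receptors and homing molecules, 3 were higher and 6 lower (median -0.111). Gimap4, a lymphocyte GTPase, was 230.5, 228 and 226 CPM with the 4-1BB agonist against 281, 269.7 and 261, and 270.3, 282 and 266 in the control, a log2 difference of -0.25 ± 0.038 (SE; adjusted p = 9.55e-06), where the OX40 and control libraries overlapped. Gimap6 was 109, 107 and 103 CPM against 126, 124 and 117 (-0.21, adjusted p = 5.48e-05). Cxcr5, the receptor of B cell follicle homing, was 12.8, 13.03 and 14.2 CPM against 19.3, 18.2 and 16.7, and 15.7, 16.4 and 16.1 in the control (-0.45, adjusted p = 0.000112). Of 21 integrins and adhesion genes, Icam1 was higher and 3 were lower (1 without 4-1BB library 3 or OX40 library 1); Itga6, an integrin of laminin binding, was 89.6, 83.9 and 86.6 CPM against 100.4, 96.8 and 101 (-0.20, adjusted p = 0.000385).

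Cytokines other than those above included Ebi3, a subunit of IL-35 and IL-27, at 38.0, 36.8 and 39.1 CPM with the 4-1BB agonist, 27.4, 27.5 and 29.5 with the OX40 agonist and 20.9, 16.1 and 20.0 in the control (0.43 on the log2 scale, adjusted p = 9.41e-06). In total 4 of 23 cytokines were higher and 3 lower (median 0.22). Called shares were 30.4% of these and 15.2% of the cytokine receptor list below, beside 3.63% of all genes tested. Of 33 cytokine receptors and STAT5 response genes, 5 were higher and 0 lower (median -0.007; 8 and 4 at an unadjusted p below 0.05, 5 and 0 by DESeq2). Il1r2, the decoy receptor of interleukin-1, was 57.5, 56.1 and 59.4 CPM against 45.8, 42.5 and 39.6, and 28.1, 26.9 and 27.0 in the control, a log2 difference of 0.42 ± 0.048 (SE; adjusted p = 8.43e-09). Stat4, a signal transducer of interleukin-12, was 77.8, 76.2 and 77.3 CPM against 59.5, 58.7 and 57.0, and 43.3, 40.8 and 38.5 in the control, a log2 difference of 0.40 ± 0.051 (SE; adjusted p = 1.9e-07). The 3 groups were separate for both. Stat4 shares exon bases with a processed transcript on the same strand.

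Cytotoxic genes were also called in both directions. Called shares of the cytotoxic, anti-apoptotic and interferon-stimulated lists were 33.3%, 30.8% and 11.1%, beside 3.63% of all genes tested. Of 12 tested, 2 were higher and 2 lower (median -0.14). Both higher genes encode granzyme inhibitors or relatives: Serpinb9 was 154, 148 and 154 CPM against 112, 110.5 and 112, and 86.0, 83.0 and 80.3 in the control, a log2 difference of 0.44 ± 0.040 (SE; adjusted p = 2.08e-11), and Serpinb6b was 61.4, 58.4 and 57.9 CPM against 49.0, 49.1 and 46.3 (0.30, adjusted p = 6.07e-05). The lower ones were Nkg7 and Ctsw, a protease of cytotoxic lymphocytes, at 14.1, 16.2 and 14.3 CPM against 21.4, 19.1 and 19.5, and 28.5, 26.1 and 25.6 in the control (-0.44, adjusted p = 1.16e-05). Among 13 anti-apoptotic genes, 3 were higher and 1 lower (median 0.041). Bcl2 itself was the lower one, at 77.4, 79.6 and 76.8 CPM against 91.7, 95.8 and 91.1, and 105, 115 and 106 in the control (-0.25, adjusted p = 0.00098), while Bcl2a1d was higher (0.29, adjusted p = 0.000973). With library 1 as the only OX40 library their log2 differences were -0.24 and 0.23, and neither passed (adjusted p = 0.0648 and 0.195), and Bcl2a1d has near-identical copies among which reads may be split. Bcl2l1, which encodes Bcl-xL and was not called, had a log2 difference of 0.040 (adjusted p = 0.765; 95% interval -0.027 to 0.106). Of 36 interferon-stimulated genes, 4 were higher and 0 lower (median -0.014; 4 and 5 at an unadjusted p below 0.05, 3 and 0 by DESeq2), and the 4 became 1 without 4-1BB library 2 and 2 without 4-1BB library 3, OX40 library 2 or OX40 library 3.

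Growth and metabolism lists held almost no called gene. By edgeR and by DESeq2 alike, 0 members were called of 40 S phase genes, 32 G2 and mitosis genes, 31 ribosome biogenesis genes, 25 glycolysis genes, 38 oxidative phosphorylation genes, 28 cholesterol genes, 17 fatty acid synthesis genes, 17 chaperones and 11 chemokines. At an unadjusted p below 0.05 the counts in the same order were 0, 0, 2, 5, 0, 3, 4, 0 and 2, beside 1672 of all 14313 genes. The log2 differences of the S phase genes ran from -0.049 to 0.073, and those of G2 and mitosis from -0.065 to 0.070. Those of oxidative phosphorylation ran from -0.075 to 0.073, of ribosome biogenesis from -0.085 to 0.081 and of cholesterol genes from -0.187 to 0.205. Ranges were wider for glycolysis (-0.426 to 0.114), fatty acid synthesis (-0.234 to 0.883), chaperones (-0.786 to 0.134) and chemokines (-0.228 to 0.997). Over alternative settings of the fit, up to 2 fatty acid genes were called lower, and up to 1 glycolysis and 1 chemokine gene higher. Mki67, the proliferation marker, was 1377, 1423 and 1431 CPM with the 4-1BB agonist and 1374, 1479 and 1399 with the OX40 agonist, intermixed, with a 95% interval of the log2 difference from -0.157 to 0.143. Myc had a log2 difference of -0.073 (adjusted p = 0.365). Single exceptions in related lists, beside Adm in the hypoxia list, were Ccnd2, which encodes cyclin D2, higher (0.15, adjusted p = 0.00655), and Xbp1, a factor of the unfolded protein response, lower (-0.19, adjusted p = 0.00103). Ccnd2 lost the call without OX40 library 1 and with it as the only OX40 library (highest adjusted p 0.106). In all, 743 list genes were tested and 106 (14.27%) were called, 53 in each direction, beside 3.63% of all genes tested.

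**Figure D4:**
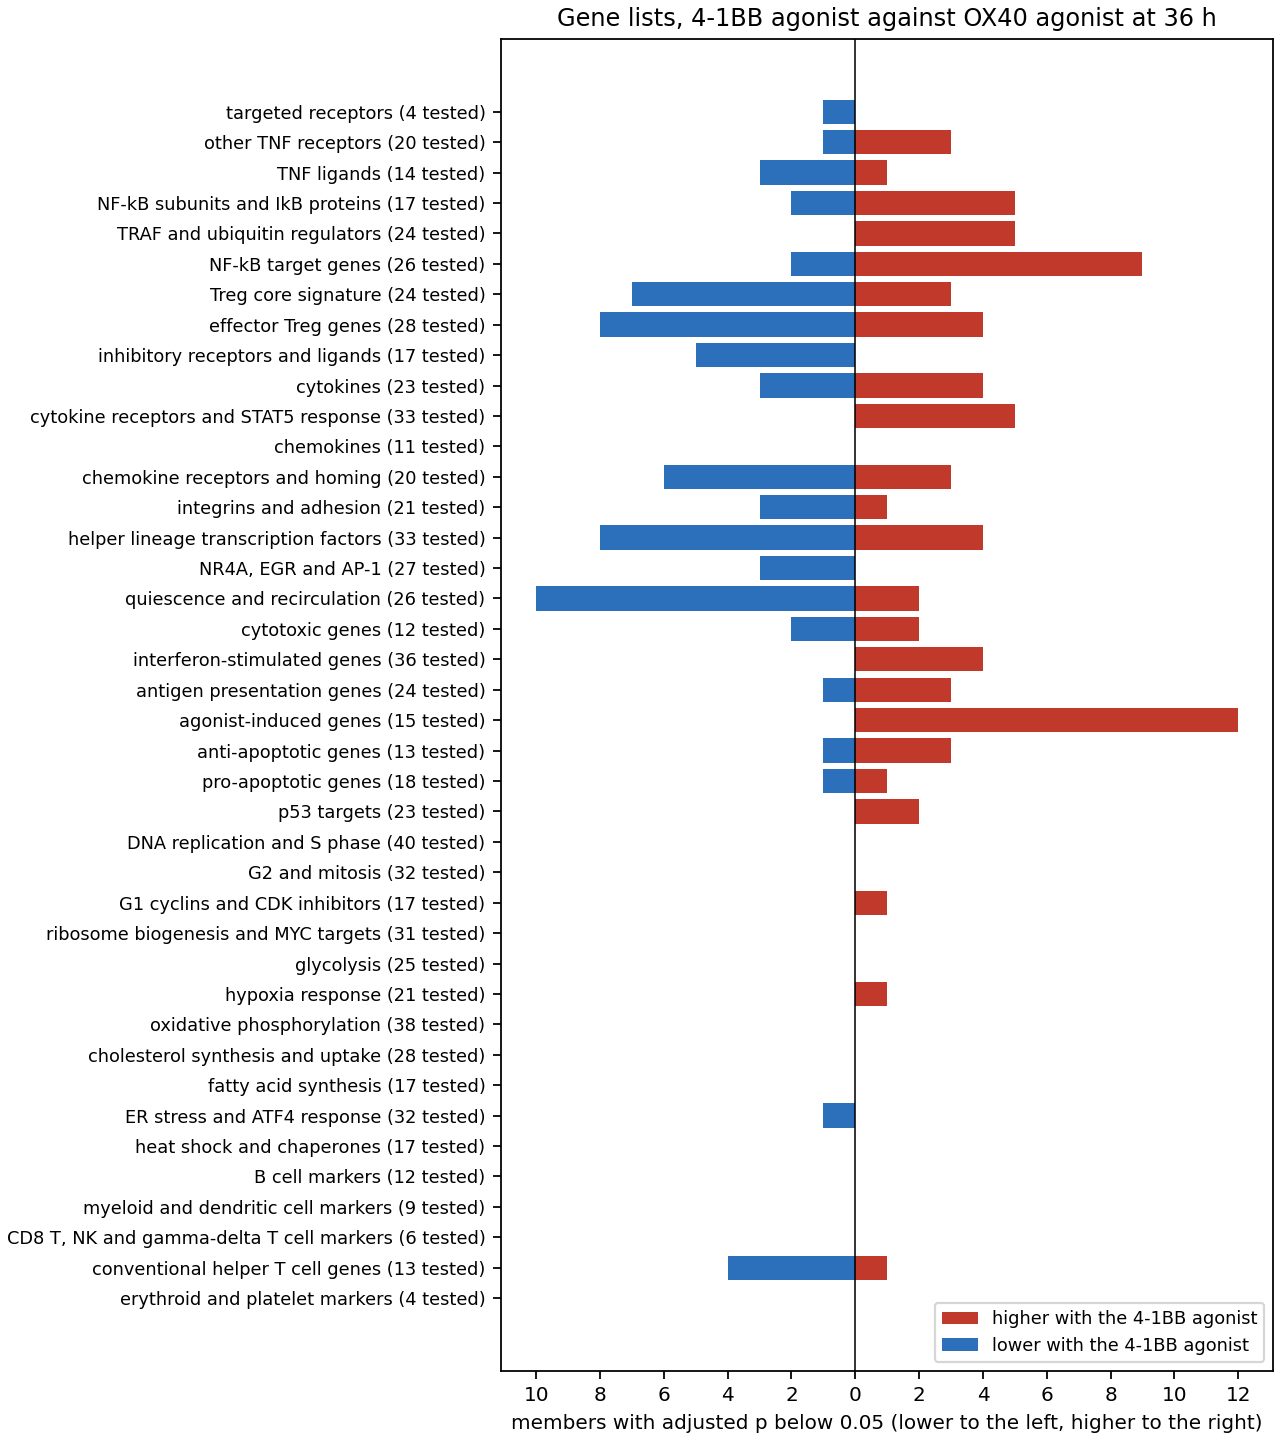
Bars count the members of each of 40 gene lists with an adjusted p below 0.05 in the 4-1BB against OX40 comparison at 36 h, lower to the left and higher to the right, with the number tested beside each name. The list of agonist-induced genes was chosen on these data; over all 14313 genes 3.63% were called.

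The same comparison at 18 h uses other libraries, 3 with the 4-1BB agonist and 2 with the OX40 agonist, so it measures the difference again in cells cultured for a shorter time. There 610 genes (4.26%) were called, 306 higher and 304 lower with the 4-1BB agonist. Of the 520 genes called at 36 h, 288 were also called at 18 h in the same direction, which is 55.4% of the 36 h calls and 47.2% of the 18 h calls, and 0 were called in the opposite direction. By sign alone, 495 of the 520 (95.2%) had the same direction at 18 h, beside 60.9% of all genes tested. The 18 h count rests on a pair of OX40 libraries and was 939 without library 1 and 277 without library 2. DESeq2 called 636 genes at 18 h, of which 39.3% were higher with the 4-1BB agonist, against 50.2% by edgeR.

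Scin, Dennd5a and Tigit differed in the same direction at both times. Scin was 114, 120.0 and 124 CPM with the 4-1BB agonist and 53.5 and 54.8 with the OX40 agonist at 18 h, a log2 difference of 1.14 ± 0.060 (SE; adjusted p = 2.25e-19). Dennd5a gave 0.80 ± 0.041 (SE) and Tigit -0.91 ± 0.051 (SE) at 18 h, beside 0.76 and -0.62 at 36 h. Il2 was 3.73, 4.23 and 3.43 CPM against 6.43 and 6.36 at 18 h, a log2 difference of -0.74 ± 0.17 (SE; adjusted p = 0.00384), and Csf2 had one of 1.64 ± 0.17 (SE; adjusted p = 4.91e-10). Tgm2, Trpm1, Cxcr6, Kcnh2, Hspg2, Il13, Sdc3 and Ly6c1 were called at 36 h and not at 18 h, but for these the difference between the times was itself not called.

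The difference between the 36 h and the 18 h contrast was called for 19 genes (0.133%), 13 of them with a lower log2 difference at 36 h and 6 with a higher one. Cacnb3 stood at 66.5, 61.1 and 64.5 CPM against 22.5 and 18.8 at 18 h, a log2 difference of 1.63 ± 0.072 (SE), and its change between times was -0.53 ± 0.11 (SE; adjusted p = 0.0154). Ly75, an endocytic receptor known from dendritic cells, went from 0.72 ± 0.040 at 18 h to 0.27 ± 0.036 at 36 h (SE; adjusted p of the difference 6.96e-07). Its 36 h levels were 216, 227 and 225 CPM against 184, 188 and 185. Ebi3 (1.00 ± 0.084 at 18 h) and Cd80 (0.86 ± 0.082 at 18 h) also differed less at 36 h.

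Tnfrsf9, the 4-1BB gene itself, was 418, 410.1 and 418 CPM with the 4-1BB agonist and 537 and 507 with the OX40 agonist at 18 h. That was a log2 difference of -0.33 ± 0.040 (SE; adjusted p = 3.28e-08), and its change by 36 h was 0.25 ± 0.054 (SE; adjusted p = 0.025). Pcyt1a, an enzyme of phosphatidylcholine synthesis, was lower at both times, by -0.73 ± 0.041 at 18 h and -0.30 ± 0.036 at 36 h (SE; adjusted p of the difference 2.68e-06). Cttnbp2nl had a log2 difference of 0.38 ± 0.20 (SE; adjusted p = 0.383) at 18 h, at levels near 2.93, 1.97 and 1.98 CPM against 1.64 and 1.89, and the opposite sign at 36 h, where it was called. The count of 19 was 5 without 4-1BB 18 h library 1 and 51 without OX40 18 h library 1.

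**Figure D5:**
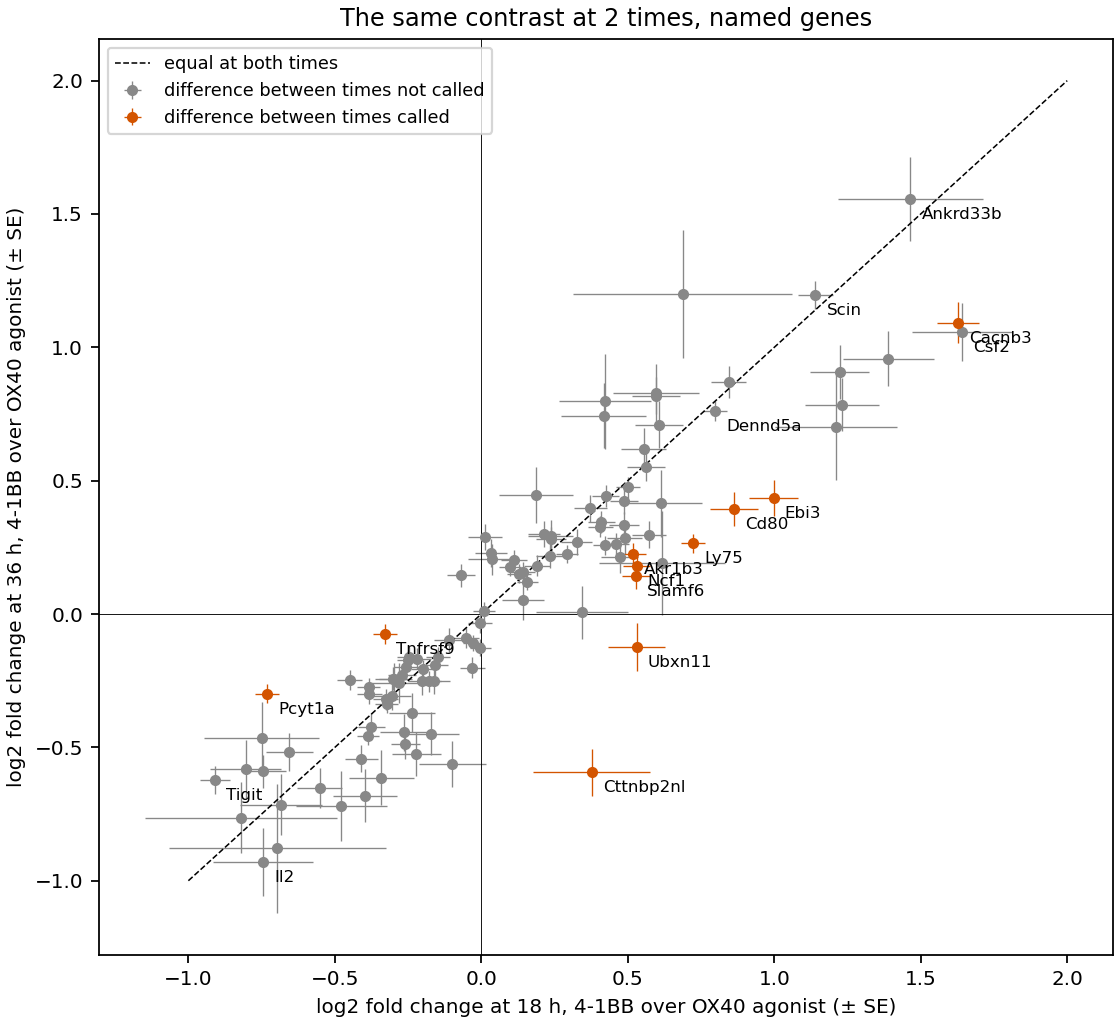
Each point is a named gene, with its log2 difference between the 4-1BB and OX40 agonists at 18 h on the horizontal axis and at 36 h on the vertical axis, both ± SE. Orange points are genes whose difference between the times was called. Most of them lie closer to 0 at 36 h, and Cttnbp2nl and Ubxn11 lie on the other side of 0.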

How the data were processed

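RNA of 32 Treg samples was measured by RNA sequencing. Per the labels' protocols, the kits were NucleoSpin RNA XS for extraction and SMART-Seq v4 Ultra Low Input for libraries. The latter does not mark strand, so antisense genes may share reads. Among genes given here with no such remark, exons of Srgap3, Sdc3, Cttnbp2nl, Foxp3, Icam1, Maf, Dusp5, Bcl2, Cxcr5, Ebi3, Ccnd2, Themis, Satb1, Cd27, Tnfsf9 and Ly75 also overlap another annotated gene. Tools in the submitters' processing notes are STAR 2.5.3a, RSEM 1.2.28, Trimmomatic and FastQC, with build mm10. For each library a table from RSEM was deposited, holding expected counts (estimated reads, not normalized) and TPM. Which annotation release the authors used is not given in the sources used here. TPM deposited by the authors was used only to compare Tnfrsf4 with Tnfrsf9. Of 54087 genes per table, 53973 matched 1 gene of GENCODE M21, the source of positions.

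Expected counts were rounded and tested in edgeR 4.0.16 (R 4.3.3): filterByExpr over 11 groups, TMM, robust quasi-likelihood F test on all 32 libraries, Benjamini-Hochberg adjustment over 14313 genes, called below 0.05. Levels are TMM-scaled CPM; standard errors and 95% intervals come from the F test. The fit was tested on counts simulated from its own means and spread, with independent libraries. That cannot show its error rates if the real libraries share animals or amplification errors. Alternatives were RLE size factors, other filters, DESeq2 1.42.0, subsets of libraries, a ribosomal covariate, a replicate block and leaving out libraries; keeping library 1 as the only OX40 library, and leaving out 18 h libraries, were chosen after seeing the data. Total expected counts of 14785089 to 38083925 per library set the precision; without molecular identifiers, intervals cover no amplification error.

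Named genes were the 15 most raised and the 15 most lowered by log2 fold change, if called, at 5 CPM or more and free of overlap between libraries, the 10 smallest p, up to 4 called members per list, the receptors, their ligands and Foxp3, and 8 genes of the interaction. Predicted genes and clones were excluded. The members and the 40 lists were chosen with earlier results of these data known. Some members of these lists are not reported here by name.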

Additional observations from a re-analysis of the deposited data

Results flagged for a closer look

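For 11 named genes the difference between the 4-1BB and the OX40 agonist was itself different at 36 h and 18 h, by the interaction term of the fit over all genes. The change in the log2 difference from 18 h to 36 h was -0.29 for Akr1b3, -0.53 for Cacnb3, -0.47 for Cd80, -0.97 for Cttnbp2nl, -0.56 for Ebi3, -0.46 for Ly75, -0.35 for Ncf1, -0.39 for Slamf6 and -0.65 for Ubxn11, and it was 0.43 for Pcyt1a and 0.25 for Tnfrsf9. For Akr1b3, Ncf1 and Slamf6 the 4-1BB level was the higher one at 18 h, by 0.52 ± 0.043, 0.53 ± 0.045 and 0.53 ± 0.047 on the log2 scale (SE), and the 36 h values were 0.23, 0.18 and 0.14. Slamf6 was not called at 36 h (95% interval 0.045 to 0.237). Ubxn11 was called at 18 h (0.53 ± 0.097, SE) and not at 36 h (-0.12 ± 0.089, SE; adjusted p = 0.692). Exons of Ncf1, Pcyt1a and Ubxn11 overlap protein-coding genes on the opposite strand. The 18 h OX40 group has 2 libraries.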

How the results depend on the processing

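Of 99 named genes called at 36 h, 68 kept the call in each of the 16 alternatives that gave them a value, 31 lost it in at least 1, and 0 changed sign. The 520 called genes became 336 to 415 when 1 library was left out (336 without OX40 library 1) and 236 with library 1 as the only OX40 library; the 106 called list members then became 63. In that last setting the lists with fewer calls by over 1.5 times included TRAF regulators (3 higher), cytokine receptors (2 higher), homing molecules (1 higher), quiescence genes (6 lower), anti-apoptotic genes (1 higher) and interferon-stimulated genes (0). The 31 genes past 2-fold became 4 under the stricter filter of 10 CPM in 3 libraries, which removes low genes, 16 by DESeq2, 18 with library 1 as the only OX40 library and 22 to 27 with 1 library left out. At 18 h the 610 became 277 to 939 with 1 library left out. The 19 genes of the interaction became 31 with no filter, 10 with the ribosomal covariate, 5 with library 1 as the only OX40 library at 36 h and 5 to 51 with 1 library left out; the cause was not tested. Same-numbered libraries showed no shared deviation (correlations 0.052, -0.082 and 0.075). With 3 libraries per group this cannot settle whether the numbers mark a shared animal, day or batch. With the replicate number as a block, 512 genes were called in all libraries and 735 in the 6 libraries alone, with 28 and 47 past 2-fold, against 637 and 42 for the 6 libraries without it; at 18 h the block gave 560, in the interaction 16, over lists 107 and 135, and for both times together 272. Depth limits genes of few CPM most.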
